A study of Mus musculus with 8 samples.

Results

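The genes described here write, copy and erase methylation of cytosine in DNA, and their transcripts were followed in mouse embryonic stem cells (ESCs) during and after treatment with an inhibitor of MYC. They are the methyltransferase genes Dnmt1, Dnmt3a, Dnmt3b and Dnmt3l, the maintenance cofactor gene Uhrf1, and the dioxygenase genes Tet1, Tet2 and Tet3. Members were chosen by symbol, and every probe set with that symbol alone was taken, which gave 20 probe sets for 8 of the 18193 genes on the array. ESCs are the pluripotent cells of the early embryo kept in culture; here they grew on gelatine without feeders or serum in 2i medium, which holds leukaemia inhibitory factor, 1 μM of the MEK inhibitor PD0325901 and 3 μM of the GSK3 inhibitor CHIR99021. All groups share this medium. RNA of 3 DMSO samples (60 h with the solvent), 2 inhibitor-treated samples (60 h with 64 μM of 10058-F4, a small molecule that disrupts the pairing of MYC with MAX; labelled MYCi) and 3 released samples (the same 60 h, then 48 h in 2i medium without the compound; labelled Resc) was hybridised to 8 Affymetrix GeneChip arrays. The labels name no cell line and do not say whether replicates were separate cultures, so the spread that p-values rest on is that between arrays and may be technical. No group kept in DMSO for as long as the released cells was analysed here, so the added time and the withdrawal cannot be told apart.

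In mammals, cytosines followed by guanine are methylated by enzymes that differ in task. DNMT3A and DNMT3B place new marks, helped by DNMT3L, a relative without catalytic activity that binds both. DNMT1 copies marks to the new strand after replication, and UHRF1 brings it there by reading hemimethylated sites and histone tails. TET1, TET2 and TET3 oxidise methylcytosine, which leads to its loss by dilution or by base excision. ESCs in 2i medium are known for low methylation of the genome, and the balance of these enzymes is part of what sets it.

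Values are log2 expression after RMA, a procedure that corrects background, gives all arrays the same distribution and combines all probes of each probe set into 1 value. A change of total RNA per cell shared by most genes is therefore not visible, and in such bulk samples fewer cells with a transcript and less of it per cell cannot be told apart. Changes are log2 differences ± the moderated standard error, and "rose" or "fell" means an adjusted p under 0.05 in limma. Precision is limited by the number of arrays, since arrays have no read depth: standard errors of the members ran from 0.0531 to 0.107.

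Markers of the labelled cell type were high. All 8 ESC markers, Pou5f1, Sox2 and Nanog among them, had means between 9.15 and 12.21, while 8 fibroblast and feeder markers lay between 2.38 and 4.88 and 7 endoderm markers between 3.13 and 4.23. With the inhibitor 3 ESC markers rose, Zfp42 by 0.69, Klf4 by 0.46 and Esrrb by 0.20. Another 2 fell, Dppa4 by 0.40 and Tdgf1 by 0.38. Over all genes 19.2% rose and 22.3% fell. Across genes, arrays of the same group correlated at 0.9977 or more, and inhibitor-treated with DMSO arrays at 0.9803 to 0.9808. Trophectoderm markers moved with the inhibitor: 5 of 8 rose, where 19.2% of all genes did. Krt18 rose by 5.0, Krt8 by 3.24, Gata3 by 1.28, Krt7 by 1.10 and Tfap2a by 0.45 on the log2 scale. The mean level of the trophectoderm list ran from 4.76 to 4.84 in DMSO cells, 6.08 to 6.22 under the inhibitor and 4.89 to 4.99 after release. That mean hides single markers: after release Krt18 was still 1.59 ± 0.132 above DMSO (limma adjusted p = 0.000116). Krt7 was 1.21 ± 0.177 below it (limma adjusted p = 0.00293), and the other 6 were not called. Hand1, Cdx2 and Elf5 were not called with the inhibitor (-0.15, -0.20 and 0.083). The DMSO means of Gata3 (2.52) and Elf5 (2.89) lay among those of bacterial control probe sets, which ran from 2.15 to 2.95. RNA integrity, read as the 3′ minus the 5′ controls for Gapdh, was -0.216 and -0.148 with the inhibitor and between -0.133 and -0.108 elsewhere, while the same measure for Actb overlapped between groups (0.254 and 0.288 with the inhibitor, 0.248 to 0.278 elsewhere). The part of these values in the members' changes was not tested.

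With the inhibitor, the maintenance genes Uhrf1 and Dnmt1 and the de novo gene Dnmt3b fell, while Dnmt3l rose 3.29-fold. After release, Uhrf1, Dnmt1 and Dnmt3b no longer passed the test against DMSO, Dnmt3l was still 3.42-fold above it, and Tet2 stood 1.83-fold above it. Tet1 and Tet3 did not pass the test in any comparison with the probe set that represents the gene. For Dnmt3a, Tet1 and Tet2 the probe sets of the gene gave different answers under the inhibitor, and each is described below. Those of Dnmt3a and Tet1 did so on release too. Of the 8 genes, 2 were called higher and 3 lower with the inhibitor, where 19.2% and 22.3% of all genes were, or 41.5% in either direction. The 2 higher were Dnmt3l and Dnmt3a. Dnmt3a is counted by its leading probe set, and its other probe sets did not all share that direction. The arrays of these groups did not overlap for 5 of the 8, and for 60.5% of all genes. On release 4 were called higher and 1 lower (22.7% and 19.2% of all genes, 41.9% in either direction), with 5 of 8 not overlapping against 61.9%. In the released cells 2 of 8 were called higher than DMSO, where 4.66% of all genes were, and 0 lower in limma (0 also at an unadjusted p under 0.05), where 4.01% were, or 8.66% in either direction. The 2 members called against DMSO were Dnmt3l and Tet2.

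Promoter sequence was examined for motifs of MYC and of S-phase regulation: the E-box CACGTG, to which MYC and MAX bind as a pair, and 4 forms of the E2F motif (TTTCGCGC, TTTCCCGC, TTTGGCGC and TTTGCCGC), to which the E2F regulators of S phase bind. Windows of 300 bases, from 250 before to 50 after each annotated start, came from RefSeq (GRCm38.p6) and covered 8 of 8 members in 15 windows. Both strands were read, and no match overlapped another. Dnmt1 and Uhrf1, which fell and came back, held an E2F form in 1 of 3 and 1 of 2 windows, and Dnmt3a and Dnmt3l held an E-box in 1 of 3 windows each. Dnmt3b, which also fell and came back, held neither an E2F form nor an E-box. Dnmt3a and Dnmt3l did not follow the same course: on release the leading probe set of Dnmt3a fell and Dnmt3l was not called, and the probe sets of Dnmt3a differed among themselves. All matches in the members' windows are shown, with the motif in capitals and its reverse complement where it lies on the other strand.
Dnmt1, E2F, opposite strand, chr9:20952824-20952853 (-): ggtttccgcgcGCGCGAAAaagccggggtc
Dnmt1, E2F, same strand, chr9:20952574-20952603 (-): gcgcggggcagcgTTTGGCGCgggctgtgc
Uhrf1, E2F, same strand, chr17:56304117-56304146 (+): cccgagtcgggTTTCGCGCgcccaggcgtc
Dnmt3a, E-box, chr12:3891652-3891681 (+): tccagtggggccCACGTGacctggagttct
Dnmt3l, E-box, chr10:78049786-78049815 (+): cactcctcccctCACGTGctgggctcctta
Counted from the annotated start, the motifs begin at positions -219 and 33 in Dnmt1, -185 in Uhrf1, -80 in Dnmt3a and -44 in Dnmt3l. The E-box stood in 2 of the 15 windows (13.3%) and in 7.15% of all 32851 windows. Any E2F form stood in 2 of 15 (13.3%) and in 2.26%. Each of the 4 E2F forms holds a CG. The matching windows of Dnmt1 and Uhrf1 held 33 CG dinucleotides each, where the median of all windows was 7. The shares over all windows were not matched for CG content, and its part in these matches was not tested. A match is a string of letters and not a binding site. In the windows of Dnmt3b, Tet1, Tet2 and Tet3 none of these letters were found. The Tet2 window held 57 CG dinucleotides, more than 99.8% of all windows, and the 3 Dnmt3l windows held between 3 and 6.

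**Figure D1:**
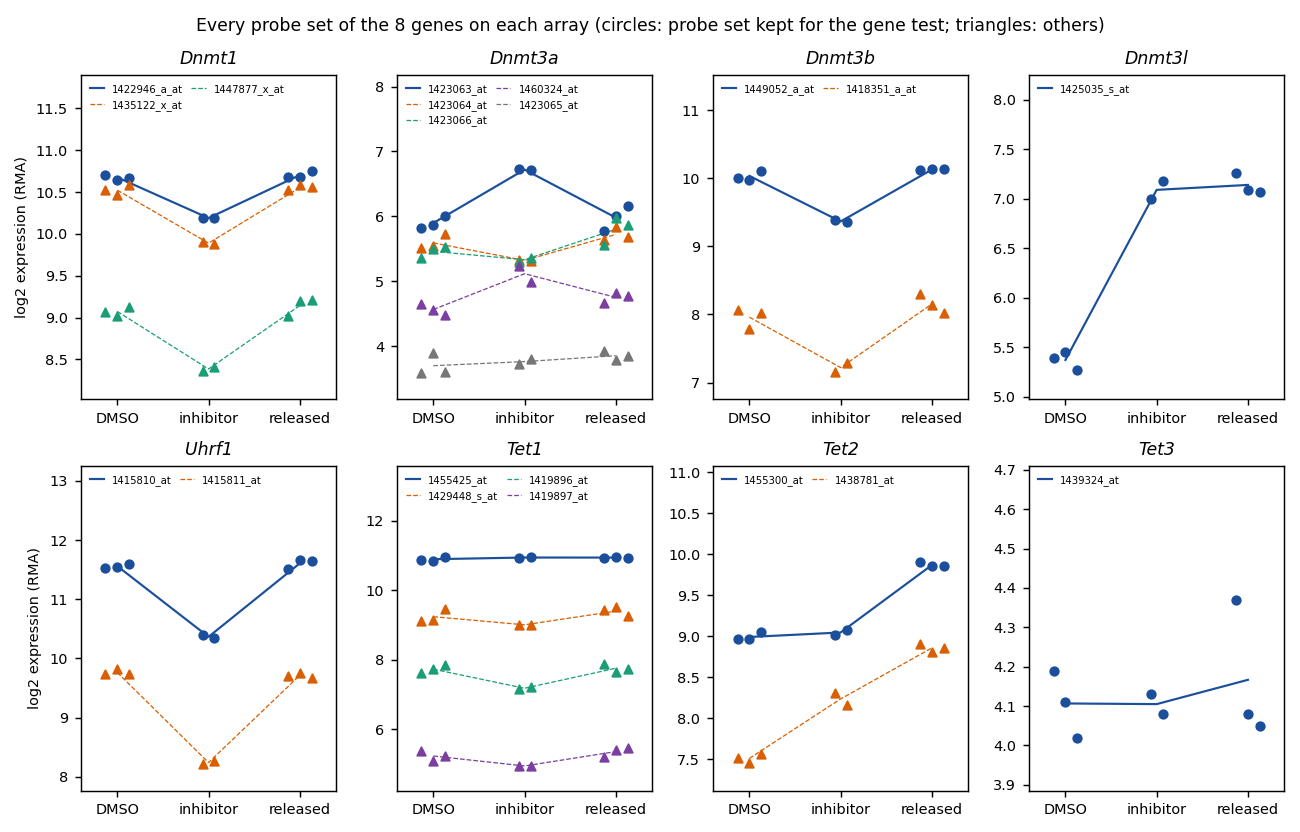
Log2 expression of every member probe set on each of the 8 arrays, by group (DMSO, inhibitor, released); circles mark the probe set kept for the gene test, triangles the others, and lines join group means. Uhrf1 dips from 11.56 to 10.37 and returns to 11.60, Dnmt3l steps from 5.37 to 7.09 and stays at 7.14, and Tet2 rises in the released cells on both of its probe sets.

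Uhrf1 had the largest fall of the members. Its log2 values were 11.53, 11.55 and 11.60 with DMSO, 10.39 and 10.34 with the inhibitor and 11.51, 11.67 and 11.64 after release. The inhibitor-treated arrays lay below all others, and DMSO and released arrays overlapped. Uhrf1 fell 2.28-fold with the inhibitor (-1.19 ± 0.0679; limma adjusted p = 7.61e-07), and 169 of 18193 genes fell further. It rose by 1.24 ± 0.0679 between inhibitor-treated and released arrays (limma adjusted p = 5.44e-07) and differed from DMSO by 0.046 afterwards (95% interval -0.09 to 0.18). A further probe set of Uhrf1, 1415811_at, fell more, by 1.52 on the log2 scale. The difference in change between both probe sets, 0.33 ± 0.0975, passed the test (limma adjusted p = 0.0313 over 16752 pairs of probe sets of the same gene). Of 12 such pairs of the members, 6 differed in change with the inhibitor, 6 on release and 1 against DMSO after release, where 24.8%, 22.8% and 1.96% of all pairs did. All pairs of a gene share its leading probe set, so they are not independent. The 6 on release all belonged to Dnmt3a and Tet1.

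Dnmt1, the copying enzyme, fell less. Its values were 10.71, 10.65 and 10.67 with DMSO, 10.19 on both inhibitor-treated arrays, and 10.68, 10.68 and 10.75 after release. Again the inhibitor-treated arrays stood apart below and the other groups overlapped. The change was -0.48 ± 0.0594 with the inhibitor (limma adjusted p = 0.000112), a 1.4-fold fall, and 0.51 ± 0.0594 on release (limma adjusted p = 7.42e-05), which left 0.029 against DMSO (95% interval -0.09 to 0.15). The other probe sets, 1435122_x_at and 1447877_x_at, fell by 0.63 and 0.69; the suffix x marks probes that can also match other transcripts. No difference in change between the Dnmt1 probe sets passed the test under the inhibitor (limma adjusted p = 0.28 and 0.155).

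The fall of both maintenance genes stood beside that of S-phase genes. Of 12 measured S-phase genes, 0 rose in limma (1 higher at an unadjusted p under 0.05) and 11 fell with the inhibitor (median -0.797, against -0.058 for all genes), among them the licensing factor Cdc6 (-2.08 ± 0.0787), the cyclin Ccne1 (-1.83 ± 0.0691), the thymidine kinase Tk1 (-1.82 ± 0.0689) and the reductase subunit Rrm2 (-1.57 ± 0.0716). Tyms was the exception at 0.35 ± 0.138 (limma adjusted p = 0.0693). Over all genes 19.2% rose and 22.3% fell with the inhibitor. On release 11 of the 12 S-phase genes rose, where 22.7% of all genes did. Against DMSO 0 of the 12 were called by limma afterwards (3 higher and 1 lower at an unadjusted p under 0.05), and with a variance trend and robust fitting 3 were higher and 1 lower. In the limma test against DMSO 8.66% of all genes were called. The part of the S-phase genes in the falls of Uhrf1 and Dnmt1 was not tested.

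Genes that work with Uhrf1 and Dnmt1 moved in both directions. In the list of maintenance and recruitment partners, of 14 measured genes 3 rose and 7 fell with the inhibitor (median -0.222). Over all genes 19.2% rose and 22.3% fell, with a median of -0.058. The falls with the smallest p were those of Dppa3 (-1.08 ± 0.0723), whose product keeps UHRF1 from chromatin, the DNA ligase Lig1 (-0.84 ± 0.0639), Cdca7 (-0.96 ± 0.0799), which recruits the remodeller HELLS, and the replication clamp Pcna (-0.63 ± 0.0701). Hells itself fell by 0.60. The imprint guardian Zfp57 rose by 0.35 ± 0.073, the histone methyltransferase gene Ehmt1 by 0.30 ± 0.0691 and Uhrf2, the relative of Uhrf1, by 0.39 ± 0.092. After release Lig1, Cdca7, Pcna and Hells were back within -0.15 and 0.12 of DMSO and not called. Dppa3 was not: its mean was 8.89 with DMSO, 7.81 with the inhibitor and 7.57 after release, a fall of 1.33 ± 0.0647 against DMSO (limma adjusted p = 8.72e-06), while Zfp57 stood 0.46 ± 0.0653 above DMSO and Uhrf2 0.31 ± 0.0823 (limma adjusted p = 0.049; not called whichever array was left out, at 0.0558 to 0.148).

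Among the de novo genes, Dnmt3b went down and came back. Its values were 10.01, 9.98 and 10.11 with DMSO, 9.38 and 9.35 with the inhibitor and 10.12, 10.13 and 10.13 after release. The inhibitor-treated arrays lay below all others, and the released arrays lay just above the DMSO arrays without overlap. Dnmt3b fell 1.59-fold (-0.67 ± 0.063; limma adjusted p = 1.86e-05) and rose by 0.76 ± 0.063 on release (limma adjusted p = 7.29e-06). The remaining difference of 0.092 ± 0.0564 to DMSO did not pass the test (limma adjusted p = 0.381; groups do not overlap for 28.6% of all genes in this comparison). Its other probe set, 1418351_a_at, moved alike, with -0.75 ± 0.108 and 0.94 ± 0.108.

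Dnmt3l, the cofactor without catalytic activity, took the opposite course and kept it. The values were 5.39, 5.45 and 5.27 with DMSO, 7.0 and 7.18 with the inhibitor and 7.26, 7.09 and 7.07 after release. All 5 arrays that had seen the inhibitor lay above all DMSO arrays, and inhibitor-treated and released arrays overlapped. Dnmt3l rose by 1.72 ± 0.089 with the inhibitor (limma adjusted p = 4.23e-07), and it was 1.77 ± 0.0796 above DMSO after release (limma adjusted p = 8.72e-06). Between released and inhibitor-treated arrays it differed by 0.053 ± 0.089 (95% interval -0.15 to 0.25), which did not pass the test. Only 2 of 18193 genes stood further above DMSO in the released cells, while 145 rose further with the inhibitor. Both comparisons use the same DMSO arrays. The gene rests on 1 probe set, 1425035_s_at, whose suffix s marks probes shared by several transcripts, so no further probe set can be set beside it.

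Dnmt3a gave no single answer. Its leading probe set, 1423063_at, read 5.82, 5.87 and 6.00 with DMSO, 6.73 and 6.71 with the inhibitor and 5.77, 6.01 and 6.16 after release. On this probe set the inhibitor-treated arrays were highest and the other groups overlapped: it rose by 0.82 ± 0.107 (limma adjusted p = 0.00016) and fell by 0.74 on release (limma adjusted p = 0.000311). Probe set 1460324_at moved the same way (0.56 ± 0.0936, then -0.37 ± 0.0936). In contrast, 1423064_at read 5.51, 5.54 and 5.72 with DMSO, 5.33 and 5.31 with the inhibitor and 5.64, 5.84 and 5.68 after release, a fall of 0.27 (limma adjusted p = 0.0358) followed by a rise of 0.40. The last pair, 1423066_at and 1423065_at, did not pass the test with the inhibitor (-0.13 ± 0.116 and 0.059 ± 0.102). The change of the leading probe set differed from those of 1423064_at (by 1.10 ± 0.116; limma adjusted p = 0.000141), 1423066_at (0.95 ± 0.106; 0.000179) and 1423065_at (0.77 ± 0.162; 0.0066), and not from that of 1460324_at (0.27 ± 0.134; 0.184). With the mean of all 5 probe sets Dnmt3a rose by 0.21 with the inhibitor, and the call on release ended (-0.029; limma adjusted p = 0.764). Which part of the transcript each probe set reads was not examined. Dnmt3a has several annotated starts, and no direction is given here for the gene as a whole.

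**Figure D2:**
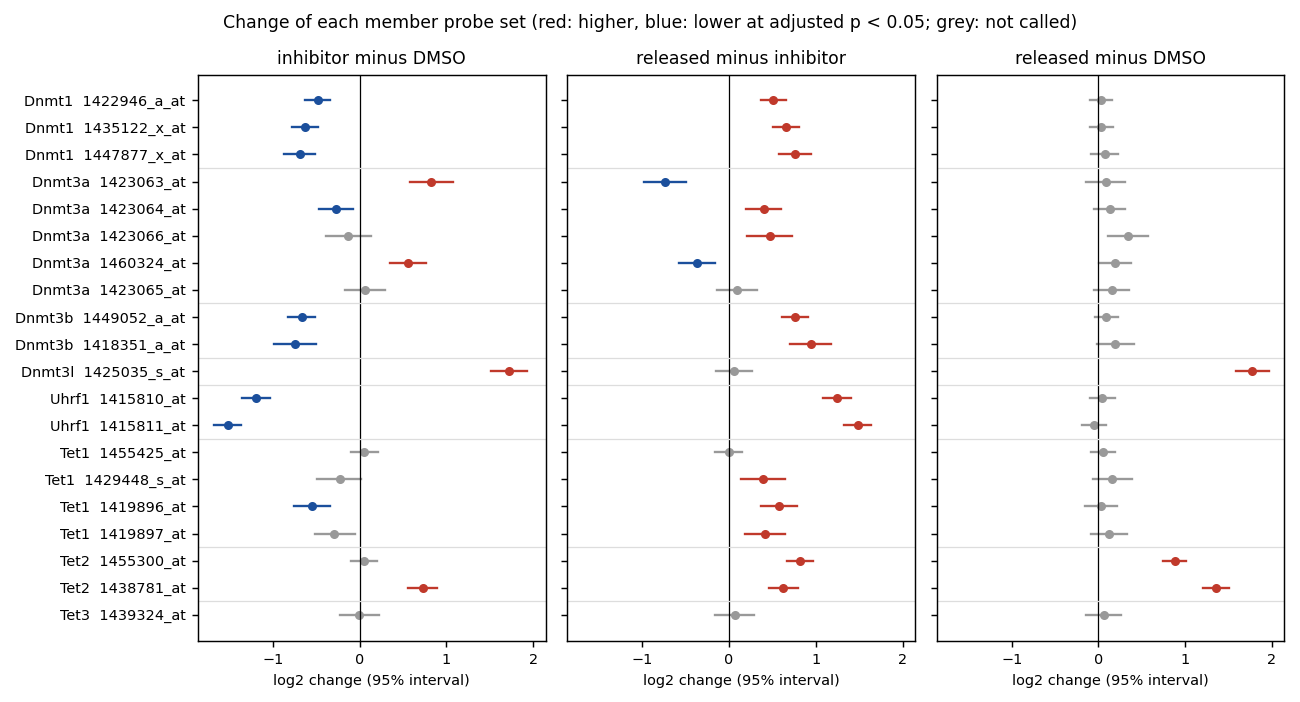
Log2 change with its 95% interval for the 20 member probe sets in the 3 comparisons, from the fit over all 34945 probe sets with 1 symbol; red marks higher, blue lower and grey not called. With the inhibitor 4 are higher and 9 lower, and against DMSO after release the 3 called are those of Dnmt3l and Tet2.

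Of the erasers, Tet2 was the one that ended above its start. Its leading probe set, 1455300_at, read 8.96, 8.96 and 9.05 with DMSO, 9.02 and 9.07 with the inhibitor and 9.90, 9.85 and 9.85 after release. DMSO and inhibitor-treated arrays overlapped, and the released arrays lay above both. With the inhibitor the change was 0.055 ± 0.0615 (limma adjusted p = 0.515; 95% interval -0.083 to 0.19). On release Tet2 rose by 0.82 ± 0.0615 (limma adjusted p = 3.86e-06), to 0.88 ± 0.055 above DMSO (limma adjusted p = 2.91e-05), where 44 of 18193 genes stood further above DMSO. The other probe set, 1438781_at, read 7.51, 7.46 and 7.56 with DMSO, 8.31 and 8.16 with the inhibitor and 8.91, 8.81 and 8.85 after release. There the groups followed each other without overlap: Tet2 rose by 0.73 ± 0.0742 with the inhibitor and by 0.62 ± 0.0742 more on release, to 1.35 ± 0.0663 above DMSO. The difference between both probe sets under the inhibitor passed the test (-0.67 ± 0.0937; limma adjusted p = 0.000665), and with their mean Tet2 was called higher at 0.39 (limma adjusted p = 0.000356). The rise above DMSO after release was thus read by both probe sets, with a rise that was smaller on the leading one (difference -0.47 ± 0.0838; limma adjusted p = 0.0255), and a rise during treatment by 1 of them.

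Tet1, an eraser gene known for its expression in ESCs, did not pass the test on its leading probe set. 1455425_at read 10.87, 10.85 and 10.97 with DMSO, 10.92 and 10.97 with the inhibitor and 10.92, 10.97 and 10.94 after release, and all groups overlapped. The changes were 0.053 with the inhibitor (95% interval -0.089 to 0.19), -0.0041 on release (-0.15 to 0.14) and 0.049 against DMSO (-0.078 to 0.18). The remaining 3 probe sets were all lower with the inhibitor, of which 1419896_at passed the test: it read 7.62, 7.73 and 7.85 with DMSO, 7.15 and 7.22 with the inhibitor and 7.88, 7.65 and 7.75 after release, a fall of 0.55 (limma adjusted p = 0.000991). Probe sets 1419897_at (-0.29 ± 0.102; limma adjusted p = 0.0509) and 1429448_s_at (-0.23 ± 0.113; limma adjusted p = 0.138) did not pass, although their inhibitor-treated arrays lay below all DMSO arrays, as those of 57.8% of all probe sets lay apart. All 3 rose on release, by 0.57, 0.41 and 0.39. The leading probe set differed in change from 1419896_at with the inhibitor (0.60 ± 0.106; limma adjusted p = 0.00248), and with the mean of all probe sets Tet1 was called lower (-0.25; limma adjusted p = 0.00968). On release the leading probe set differed from 1419896_at, 1419897_at and 1429448_s_at, by -0.58, -0.41 and -0.40 (limma adjusted p = 0.00332, 0.0262 and 0.0278).

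Tet3 was low on all arrays. Its 1 probe set lay between 4.02 and 4.37, where bacterial control probe sets lay between 2.15 and 2.95, and its mean was above that of 37.3% of probe sets. Changes were -0.0044 with the inhibitor (95% interval -0.23 to 0.22) and 0.059 in released against DMSO cells (-0.14 to 0.26). At this level fold changes are compressed, so a change of Tet3 may not have been detectable.

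Over every probe set of the members, 13 of 20 were called with the inhibitor, 4 higher and 9 lower, where 17.5% and 19.9% of all 34945 probe sets were (37.3% in either direction). On release 16 of 20 were called, 14 higher and 2 lower, where 19.9% and 17% were (36.8%). Against DMSO after release 3 of 20 were called, all higher, where 3.61% were higher and 3.02% lower (6.63%). Probe sets of the same gene share their transcript and are not independent.

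Of 5 measured TET partners, genes that act with the erasers, 2 rose and 1 fell with the inhibitor, where 19.2% and 22.3% of all genes did. Ogt, whose product binds TET proteins and attaches sugar to them, rose by 0.55 ± 0.0769, and Idh2, a source of the cofactor α-ketoglutarate, by 0.41 ± 0.064, while Cxxc5 fell by 0.20 ± 0.0691 (limma adjusted p = 0.0402; not called without DMSO replicate 1 or 2, either inhibitor-treated array, or released replicate 1 or 3, at 0.0515 to 0.202). After release Ogt remained 0.29 ± 0.0688 above DMSO (limma adjusted p = 0.0286), a call lost without DMSO replicate 1 or 2 or each released array in turn (0.0572 to 0.0942). Idh1 differed by -0.014 ± 0.0666 with the inhibitor and did not pass.

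In the list of base excision and deamination, of 13 measured genes 5 rose and 6 fell with the inhibitor, where 19.2% and 22.3% of all genes did. Gadd45a, a stress and p53 target linked to active demethylation, rose 4.45-fold (2.15 ± 0.0886) and ended 0.42 ± 0.0793 below DMSO after release. The deaminase gene Apobec3 (-1.08 ± 0.0589), the uracil glycosylase gene Ung (-0.70 ± 0.0635) and Parp1 (-0.78 ± 0.0835), which senses strand breaks, fell and were not called against DMSO after release. Gadd45b differed by -0.057 ± 0.0735 and was not called. Tdg, the glycosylase that removes the oxidised bases, was not analysed here.

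Of 7 measured methyl-CpG readers 2 rose and 2 fell with the inhibitor, shares near those of all genes (19.2% and 22.3%). Mbd2, a repressor that binds methylated sites, rose 2.24-fold (1.16 ± 0.0688) and Zbtb33 by 0.35 ± 0.0717. Mbd3, a relative of Mbd2, fell by 0.51 ± 0.0741 and Mbd1 by 0.24 ± 0.0801 (limma adjusted p = 0.0377). The Mbd1 call was lost whichever DMSO array was left out (limma adjusted p = 0.0646 to 0.0885), and with its probe sets averaged (-0.11, 0.179). With 1 inhibitor-treated array left, its change was -0.28 or -0.2. Mbd2 was still 0.47 ± 0.0616 above DMSO after release (limma adjusted p = 0.00148), which averaging its probe sets turned to 0.10 (0.343). Of 4 measured genes of methyl donor synthesis 1 rose and 2 fell with the inhibitor, where 19.2% and 22.3% of all genes did. Ahcy, which clears the product inhibitor of methyltransferases, fell by 0.78 ± 0.0599 and Mat2b by 0.39 ± 0.0617. Mtr rose by 0.23 ± 0.0688 with the inhibitor (limma adjusted p = 0.0225; not called without DMSO replicate 3 or either inhibitor-treated array, at 0.0667 to 0.0931), and Ahcyl1 fell by 0.21 ± 0.0678 on release (limma adjusted p = 0.0339; not called whichever inhibitor-treated or released array was left out, at 0.0629 to 0.138).

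Of 4 measured genes known to act on the writer genes in ESCs, 1 rose and 2 fell with the inhibitor, where 19.2% and 22.3% of all genes did; with 4 genes this count is a description. Rbl2, a pocket protein that represses Dnmt3 genes, rose by 0.55 ± 0.107. Zfp281 fell by 0.29 ± 0.0698, and Prdm14, which holds Dnmt3b down in naive cells, by 0.21 ± 0.0692 (limma adjusted p = 0.0343; not called without DMSO replicate 2 or 3 or either inhibitor-treated array, at 0.0818 to 0.129). After release Prdm14 stood 0.25 ± 0.0619 above DMSO (limma adjusted p = 0.0394; not called whichever array other than DMSO replicate 2 was left out, at 0.0593 to 0.128). Zfp281 stood 0.28 ± 0.0624 above (limma adjusted p = 0.0225; not called without DMSO replicate 1 or 2 or released replicate 1 or 2, at 0.0557 to 0.0804) and Tfap2c, a naive-state factor, 1.08 ± 0.0894 below (limma adjusted p = 0.000116).

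Genes whose silencing is known to need DNA methylation were read beside the enzymes. Of 15 measured germline genes of this kind 7 rose and 0 fell in limma with the inhibitor (median 0.284, against -0.058 for all genes; 0 were lower at an unadjusted p under 0.05). Over all genes 19.2% rose and 22.3% fell. Dazl, an RNA-binding protein gene of germ cells, rose 2.93-fold (1.55 ± 0.0588), the meiotic axis gene Sycp3 by 1.33 ± 0.109 and the retroelement-restraining gene Tex19.1 by 1.14 ± 0.0786. Taf7l was called higher by 0.73 ± 0.076, but its DMSO mean of 2.76 lay among those of the bacterial controls, so this value can understate the change. Ddx4 rose too, by 0.96. Mael, Asz1, Brdt and Tex101 lay between -0.023 and 0.045 and were not called. Against DMSO after release 3 were higher, Tex19.1 (0.45 ± 0.0703), Rhox5 (0.41 ± 0.0584) and Dazl (0.25 ± 0.0526), and 2 were lower, Rhox6 (-0.65 ± 0.108) and Rhox9 (-0.60 ± 0.0953). Among all genes 4.66% were higher and 4.01% lower. Several of these germline genes were not silent in DMSO cells, where the means were 9.84 for Rhox5, 8.31 for Tex19.1 and 7.2 for Dazl. DNA methylation itself was not measured on these arrays, and its part in these changes was not tested.

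**Figure D3:**
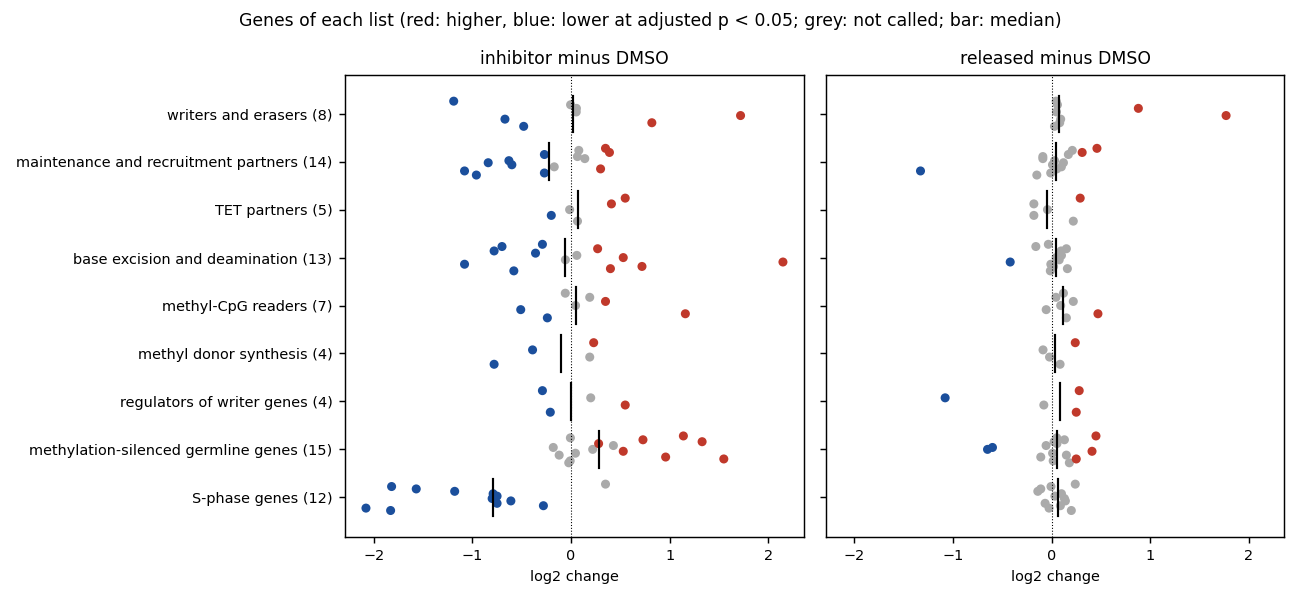
Log2 change of each measured gene in the 9 gene lists, with the number of genes in brackets, for inhibitor-treated minus DMSO arrays (left) and released minus DMSO arrays (right); points are genes, red higher, blue lower, grey not called, and bars are list medians. S-phase genes sit to the left at a median of -0.797 and return, while Dnmt3l and Tet2 on the right stand at 1.77 and 0.88.

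The genes with the profile most like that of a member were found over all 8 arrays, by the root mean square distance between log2 values set relative to the DMSO mean. Dnmt1 lay closest to Cbx2 (0.0241), Pes1 (0.0247) and Gtf3c2 (0.0255). For Uhrf1 they were Aplp1 (0.0392), E2f3 (0.0436) and Cdca5 (0.0508), and for Dnmt3b Fastkd5 (0.0273), Fignl1 (0.0297) and Clmp (0.037). The leading probe set of Dnmt3a was followed by Tcn2 (0.0599), Sspn (0.0631) and Card19 (0.0668), and Tet2 by Map3k5 (0.101), Rftn1 (0.104) and Pik3r3 (0.124). Dnmt3l had no gene as near: Bnip3, at 0.29, changed by 1.45 and 1.38 where Dnmt3l changed by 1.72 and 1.77, and Tmem181a (0.292) and Grb10 (0.512) came next. The distance is not scaled to the size of a change. Only 2 of 18193 genes stood further above DMSO after release than Dnmt3l, so few genes could lie near it on this measure.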

How the data were processed

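The deposited values are log2 expression for each probe set on each array. RMA, oligo 1.32.0 and limma 3.2.15 are named in the submitters' processing notes; the log2 scale was inferred from the range of 1.69 to 13.76. A genome build was not given in the sources used here. Symbols came from the platform annotation, which gave 34945 of 45101 probe sets 1 symbol. For each of 18193 genes the probe set with the highest mean over the 8 arrays entered the gene test, and all 34945 entered a further fit. limma 3.58.1 under R 4.3.3 was fitted to all arrays with a mean for each group (5 residual degrees of freedom). Tests were two-sided, with Benjamini-Hochberg adjustment over every feature of a fit and a threshold of 0.05. Differences in change between probe sets of the same gene were tested likewise, which was added after values were seen. The procedure was also run on simulated arrays with far fewer changed genes than were called here with the inhibitor, and no result rests on it. Members and lists were chosen with earlier results of these data known. Named genes were the members, up to 4 genes of each list with the smallest p, and the 3 nearest profiles of each called member; any other list gene named was chosen after its values were seen. Alternatives were averaging the probe sets of a gene, leaving out genes under the 30th percentile of level, centring arrays on their median, quantile normalization of the gene table, another variance model, weights for arrays, fitting the compared groups alone, a threshold of 0.01, a replicate block, and leaving out each array. Samples were grouped by the labels, promoter windows came from RefSeq (GRCm38.p6), and proteins and probe positions were not used here.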

Additional observations from a re-analysis of the deposited data

How the results depend on the processing

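The number of members called higher and lower stayed within 1.5 times in each comparison under all 17 alternatives, except that with the mean of all probe sets 0 members, in place of 1, were lower on release. The calls of Uhrf1, Dnmt1, Dnmt3b and Dnmt3l with the inhibitor, and of Dnmt3l and Tet2 after release, held under all 17. Apart from Ahcyl1 on release, called at -0.21 as reported, the values that reversed in sign were not called as reported. With the mean of all probe sets, Tet1 became -0.25 with the inhibitor and 0.34 on release, Uhrf1 -0.0006 after release, and Ahcyl1 0.013 on release. Repeated quantile normalization gave Tet3 0.042 with the inhibitor and -0.0028 on release, and median centring gave Tet1 0.034 on release. Leaving out 1 array moved Tet3 between -0.05 and 0.039 with the inhibitor, -0.036 and 0.12 on release and -0.04 and 0.12 against DMSO; Dnmt3l between -0.038 and 0.14 and Tet1 between -0.028 and 0.019 on release; and Dnmt3a between -0.0079 and 0.19 against DMSO. The cause was not tested. Where 1 inhibitor-treated array was left, it was assumed to vary like the other groups. Of 1206 alternative values of 71 list gene results, 87 lost their call and 1 reversed. No pairing by replicate number was seen: same-numbered arrays correlated in their deviations from group means between -0.056 and 0.014. Of 3 DMSO arrays, 1 was closest to the released array of its number. With 2 or 3 arrays in a group these deviations depend on each other. The check therefore cannot decide whether same-numbered arrays shared a culture. With the replicate block, 2 members were higher and 3 lower with the inhibitor, 4 and 1 on release, and 2 and 0 against DMSO. Low signal limits Tet3.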
